A study of Vachellia cornigera with 24 samples.

Results

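Transcripts listed under plastid and mitochondrial genome loci were followed in the extrafloral nectaries of Acacia (Vachellia) cornigera, the bullhorn acacia. These nectaries are leaf glands whose sugary secretion feeds the ants that live on the tree. The table names each of its 12650 rows by the closest Arabidopsis thaliana locus. All rows whose locus starts with ATCG, the plastid genome, or ATMG, the mitochondrial genome, were taken, which gave 37 plastid and 27 mitochondrial rows, 64 in all. RNA came from field plants, and each replicate pooled nectaries of several individuals. Of the ant treatments, 3 libraries came from plants 2 days after the removal of their ants, 3 from plants of the treatment named Gracilis replacement, called Gracilis from here on, 2 from plants with gut contents applied and 1 from plants to which ants were returned after 2 days. Of the times of day, 3 libraries came from 8 am, which are also the controls of the ant treatments, 3 from 9 am, 3 from noon, 1 from 2 pm, 3 from 3 pm and 2 from 3 am of day 2. The labels give a clock time of 9 am for the plants with returned ants and give none elsewhere in the ant series, and the source of the gut contents is not labelled. Time of day therefore cannot be told apart from sampling day at 3 am, nor from the ant series at 8 am.

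Plastids and mitochondria keep small genomes of their own. The plastid genome encodes core proteins of both photosystems, of the cytochrome b6f complex, of the ATP synthase and of the NADH dehydrogenase-like complex, the large subunit of Rubisco, and part of the machinery that transcribes and translates these genes. The plant mitochondrial genome encodes core subunits of the respiratory chain and a few ribosomal proteins. The photosynthetic and respiratory complexes named here also hold subunits encoded in the nucleus. In plants, poly(A) tails on organelle RNA are short and mark it for decay, whereas they stabilise nuclear messenger RNA. The libraries were made with the TruSeq RNA v2 kit, which selects RNA by its poly(A) tail.

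Values are the authors' normalised counts, rounded to whole numbers, and are not stated to be divided by transcript length, so levels are compared between libraries and not between genes. Totals per library ran from 21084266 to 32520511. The nectary markers SWEET9, a sucrose exporter of nectaries in other plants, and CWINV4, a cell wall invertase, were above 0 in all 24 libraries, and the marker CRC was not analysed here. None of the 4 mesophyll markers in the table was at 0 in any library, and of the remaining cell type markers only AHA3, a phloem proton pump, was at 0 in some libraries (10 of 24). The values are from tissue, where fewer cells with many organelles and less organelle RNA per cell cannot be told apart.

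Organelle-genome rows held a small and very uneven share of each library. Plastid rows made up 0.00807 to 0.339% of a library's total and mitochondrial rows 0.0262 to 0.225%. The summed plastid value was 4970, 16131 and 5517 in the 8 am controls, 67254, 81098 and 6505 at 9 am, 9856, 9235 and 13356 at noon, 12926 at 2 pm, 26999, 6808 and 43084 at 3 pm, and 67626 and 39756 at 3 am. Both 3 am libraries, 2 of the 9 am libraries and 2 of the 3 pm libraries thus stood above every other library, and the remaining library of each of these groups, 9 am sample 3 and 3 pm sample 2, lay among the low ones. In the ant treatments the plastid sum was 7107, 2247 and 2184 after ant removal, 2533, 4269 and 2123 with Gracilis, 4653 and 8567 with gut contents and 5889 with returned ants. All of these lay below the highest 8 am control, and 6 of the 9 lay below the lowest one.

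Mitochondrial rows followed the same libraries over a narrower range. Their sum was 8499, 10044 and 10659 in the 8 am controls, 45260, 53824 and 13289 at 9 am, 12018, 10247 and 13787 at noon, 15307 at 2 pm, 20747, 10898 and 44298 at 3 pm, and 40783 and 22458 at 3 am. It was 11496, 8197 and 7660 after ant removal, 6797, 8152 and 7499 with Gracilis, 8203 and 13153 with gut contents and 11057 with returned ants. The highest plastid sum was 38.2 times the lowest and the highest mitochondrial sum 7.92 times the lowest. The mitochondrial sum includes 9 rows described as polymerases or retroelement proteins, whose sum stayed between 4065 and 14318. The 11 rows of respiratory chain and ATP synthase subunits ran from 180 to 5194 in sum, a 28.9-fold range.

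**Figure D1:**
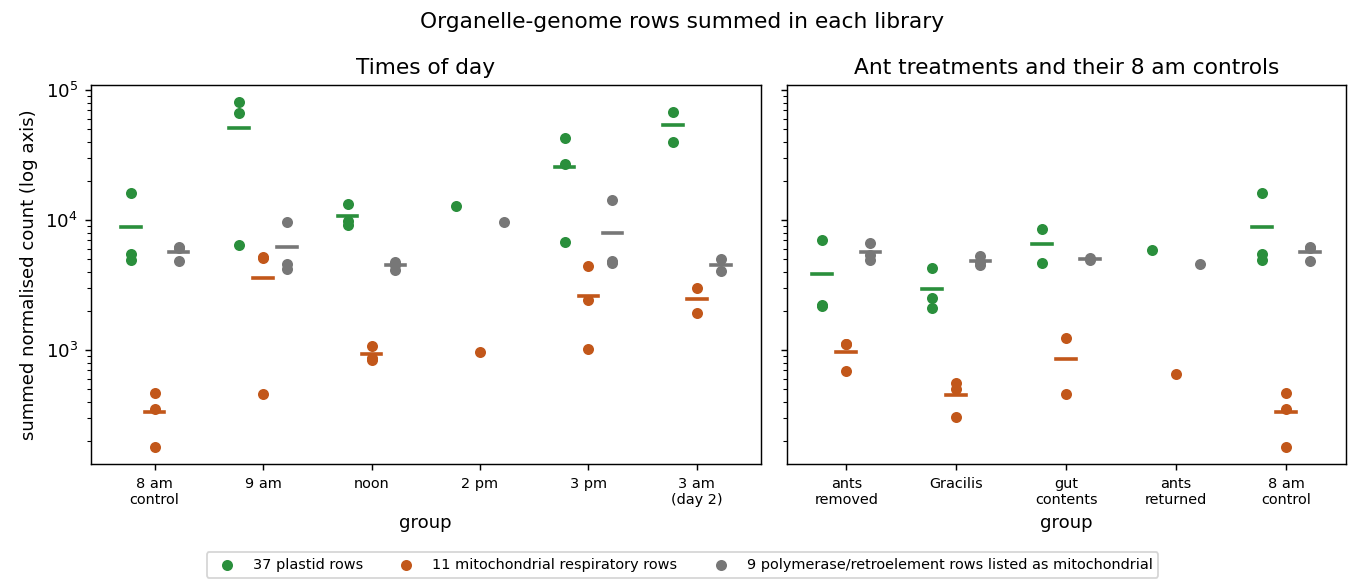
Summed normalised count on a log axis for the 37 plastid rows (green), the 11 mitochondrial respiratory rows (orange) and the 9 polymerase and retroelement rows (grey), with times of day on the left and ant treatments with their 8 am controls on the right. Points are libraries and bars are means of groups with 2 or 3 libraries. The plastid and respiratory sums spread together within 9 am, where 2 libraries are high and 1 is low, and the grey sums stay between 4065 and 14318.

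Single rows showed the same breadth. The ratio of the highest to the lowest library, each raised by 1, had a median of 60.6 over the 37 plastid rows (4.32 to 272) and of 45.9 over the 18 mitochondrial rows with other descriptions (6.32 to 442). It was 7.65 over the 9 polymerase and retroelement rows (2.58 to 11.1), against 3.41 over the 12201 nuclear rows tested (quartiles 2.38 and 6.84). Among plastid classes the median ratio was 97.1 for the 4 rows described as photosystem II, 54.5 for the 3 of photosystem I, 60.6 for the 3 of cytochrome b6f, 69.6 for the 3 of the ATP synthase and 32 for the 7 of the NADH dehydrogenase-like complex. It was 25.8 for the 4 RNA polymerase subunits and 25.6 for the 7 ribosomal proteins. The median ratio of each photosynthetic class was thus above those of both gene expression classes, and the ranges of the classes overlapped. Ratios of low rows are held down by the 1 added to each value. The part of row level in this order was not tested. The row described as photosystem II protein G, at the locus ATCG00430, carries a gene now known as ndhK and is counted here by its description.

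**Figure D2:**
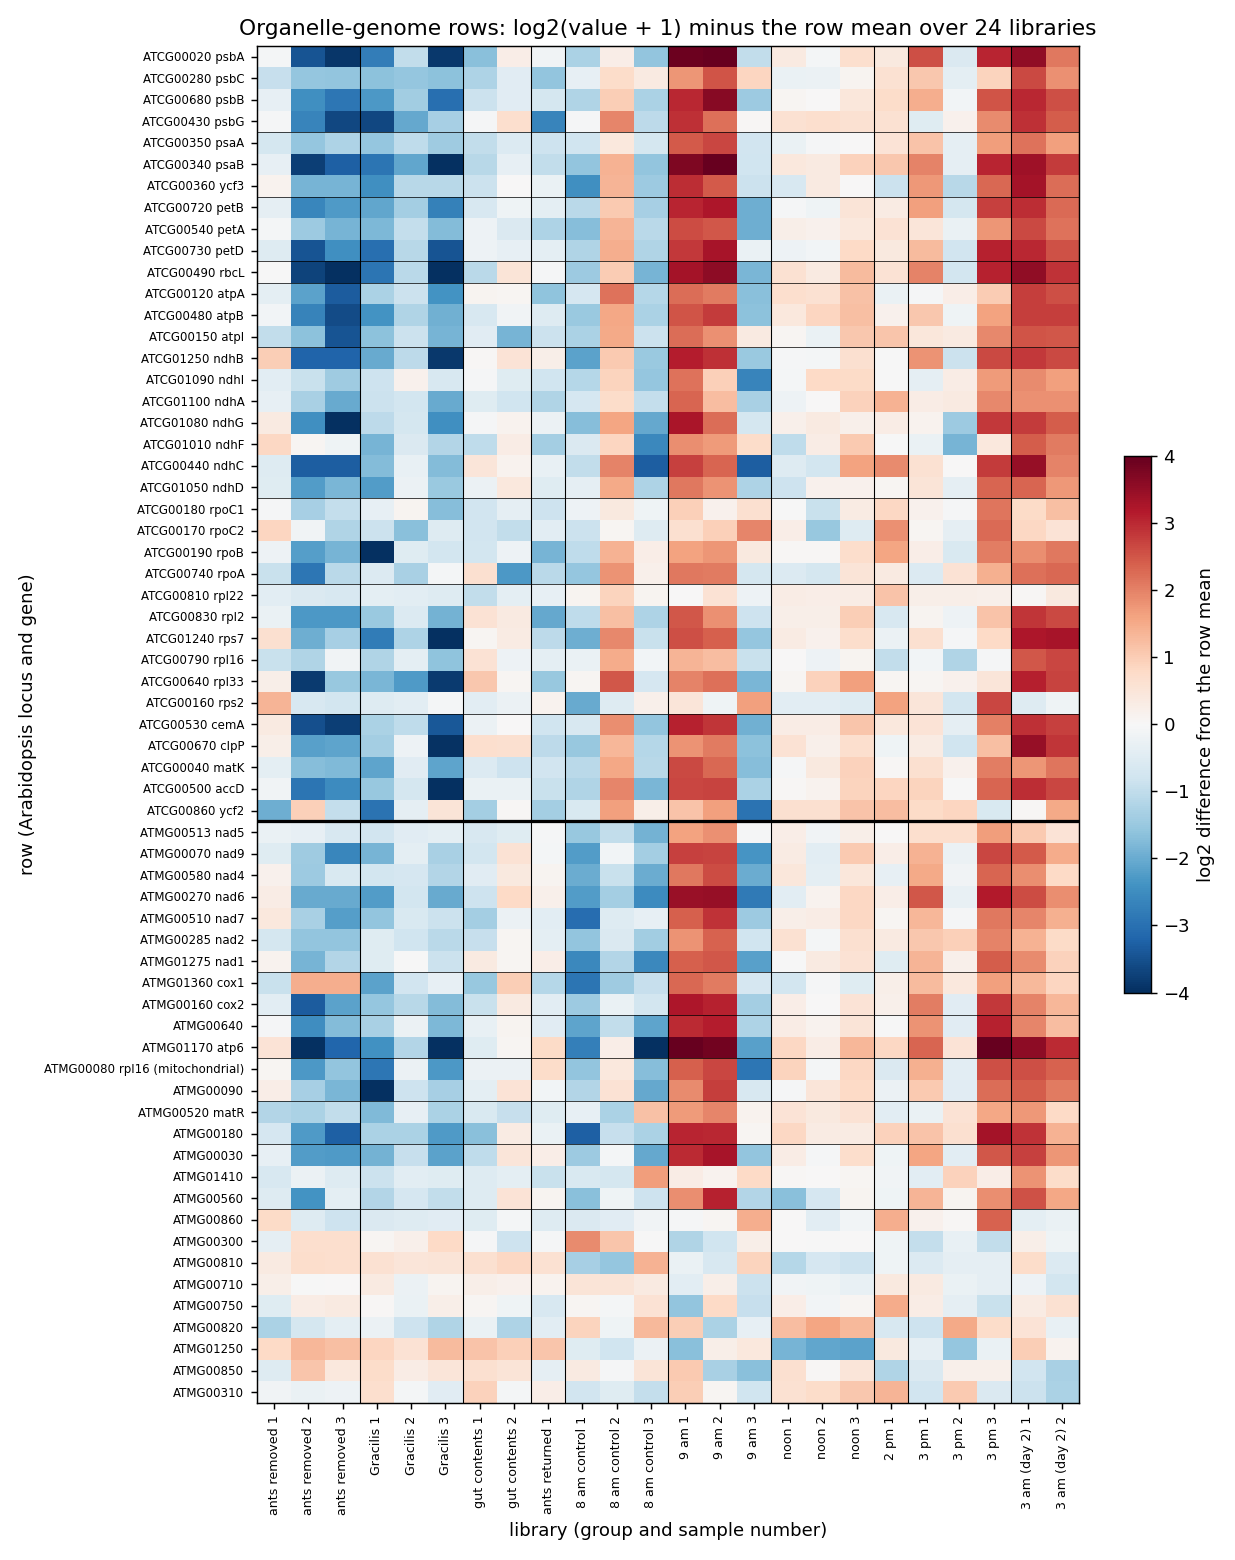
Log2(value + 1) of 63 of the 64 rows minus their mean over the 24 libraries, with rows by genome and class and libraries by group. Red is above and blue below the row mean, colours saturate at a difference of 4, and the thick line parts plastid rows (above) from mitochondrial rows (below). In most rows the same columns are red in both genomes down to the last 9 rows, the polymerase and retroelement rows, which do not share the pattern. Rows above these 9 that depart from it include rps2, rpoC2, rpl22, cox1 and ATMG01410.

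Libraries of a group differed as wholes. At 9 am, sample 3 was the lowest of the 3 libraries in 33 of the 36 plastid rows tested and in 17 of the 18 mitochondrial rows outside the polymerase and retroelement group, against 41.5% of nuclear rows. At 3 pm, sample 3 was the highest in 33 of 36 plastid and 17 of 18 mitochondrial rows, against 14.2% of nuclear rows. Sample 2 of the 8 am controls was the highest in 35 of 36 and 14 of 18, against 30.5% of nuclear rows, and sample 1 after ant removal in 34 of 36 and 14 of 18, against 38.9%. Both genomes thus picked out the same library within each of these groups. At 3 am, sample 1 was the higher of the pair in 28 of 36 plastid and 18 of 18 mitochondrial rows, against 41.7% of nuclear rows. A group mean of these rows therefore averages unlike libraries, most of all at 9 am.

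Photosynthesis genes of the plastid were high in the same few libraries. The psbA row, the D1 reaction centre protein of photosystem II, was 740, 2115 and 596 in the 8 am controls, 26526, 31596 and 891 at 9 am, 2239, 1675 and 2783 at noon, 2320 at 2 pm, 10582, 1176 and 14439 at 3 pm, and 20824 and 7581 at 3 am. The rbcL row, the large subunit of Rubisco that fixes carbon dioxide, was 466, 2616 and 355 at 8 am, 13009, 15532 and 359 at 9 am, 1972, 1665 and 3072 at noon, 1928 at 2 pm, 5058, 772 and 10890 at 3 pm, and 15122 and 9668 at 3 am. For both genes the 3 am libraries lay above all noon and 8 am libraries, and the 9 am and 3 pm libraries spanned low and high values. In the ant treatments psbA was 1665, 161 and 117 after ant removal, 260, 891 and 121 with Gracilis, 558 and 2129 with gut contents and 1591 with returned ants. Over all libraries psbB, an inner antenna of photosystem II, ran from 43 to 4365, and petB, a cytochrome b6f subunit, from 54 to 3330 with petA of the same complex from 23 to 580. The ATP synthase subunits atpA and atpB ran from 19 to 1390 and from 6 to 574. Genes with other roles covered similar ground, clpP of the plastid protease from 4 to 860, accD of fatty acid synthesis from 1 to 351 and the splicing maturase matK from 14 to 410. The rows of lowest mean were ycf3, a photosystem I assembly factor (1 to 108), ndhD (2 to 70) and ycf2. The ycf2 row had 0 to 23, fell short of a mean of 10 over all libraries and was left out of the tests, as the only row of the 64.

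**Figure D3:**
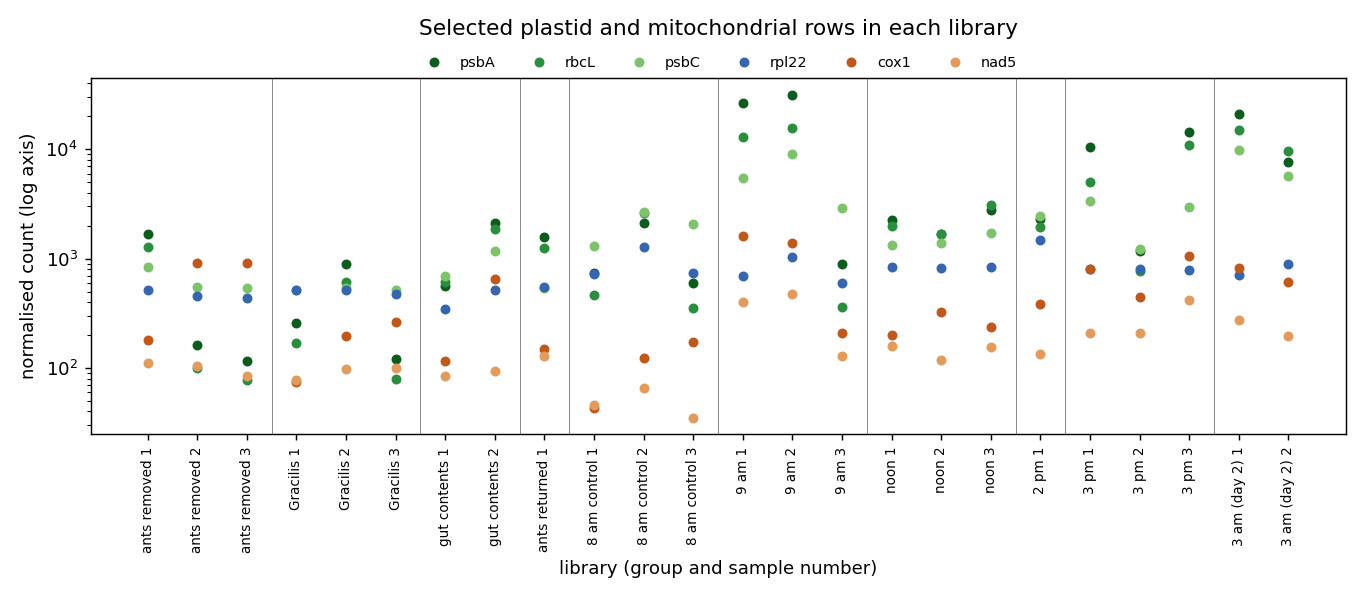
Normalised count on a log axis of psbA, rbcL, psbC and rpl22 of the plastid and of cox1 and nad5 of the mitochondrion in each of the 24 libraries, grouped by treatment or time with a thin line between groups. The psbA and rbcL points run from about the level of nad5 to the top of the plot, and rpl22 stays between 344 and 1490.

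The make-up of the plastid rows differed between libraries. The psbC row, an inner antenna protein of photosystem II, took 44.6% of the plastid sum in 9 am sample 3 and 8.19 and 11.2% in the other 9 am samples. Its value divided by that of psbA was 0.206 to 0.319 in 9 am samples 1 and 2 and 3 pm samples 1 and 3, where the plastid sum was high. It was 3.25 in 9 am sample 3, 3.45 in 8 am sample 3, 3.40 and 4.57 in samples 2 and 3 after ant removal and 4.23 in Gracilis sample 3. The 3 am libraries, also high in sum, lay between at 0.477 and 0.757. Some libraries of low sum had low ratios too, 0.338 with returned ants, 0.505 in ant removal sample 1 and 0.553 in gut contents sample 2. The 2 photosystem I reaction centre genes, psaA and psaB, which stand next to each other in the plastid genome of Arabidopsis, also differed in proportion. The value of psaB divided by that of psaA was 0.286 and 0.295 in 9 am samples 1 and 2 and 0.308 in 3 pm sample 3, against 0.114 in 9 am sample 3, 0.0229 and 0.0269 in samples 2 and 3 after ant removal and 0.0164 in Gracilis sample 3. In 3 pm sample 1, of high sum, it was 0.211, and in 8 am sample 2, of lower sum, 0.234. Plastid rows thus did not keep fixed proportions across libraries, and the proportions did not follow the sum alone.

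Among plastid rows rpl22, a protein of the large ribosomal subunit, varied least. It was 728, 1270 and 743 in the 8 am controls, 690, 1025 and 598 at 9 am, 839, 825 and 845 at noon, 1490 at 2 pm, 807, 797 and 791 at 3 pm and 701 and 896 at 3 am. The 2 pm library was the highest, as it was for 3717 of the 12201 nuclear rows, whereas every other plastid row tested peaked at 9 am, 3 pm or 3 am. As background, legumes, the family of Acacia, lack rpl22 in the plastid genome and carry it in the nucleus. Which genome this row was read from was not tested. The ribosomal protein rps2 and the polymerase subunit rpoC2 had an order of their own. Their highest values were 127 and 123 in 3 pm sample 3, followed by 62 and 97 in 9 am sample 3 and 60 and 90 at 2 pm. In 9 am sample 3 they were thus high, where most plastid rows were low. The other polymerase subunits ran from 12 to 188 (rpoC1), 0 to 78 (rpoB) and 1 to 71 (rpoA).

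Mitochondrial respiratory genes were high in the same libraries as the plastid genes. The nad5 row, a proton-pumping subunit of complex I, was 46, 66 and 35 in the 8 am controls, 403, 474 and 129 at 9 am, 159, 119 and 156 at noon, 134 at 2 pm, 211, 211 and 420 at 3 pm, and 274 and 194 at 3 am. The cox2 row, a subunit of cytochrome c oxidase (complex IV), was 28, 65 and 47 at 8 am, 748, 679 and 30 at 9 am, 94, 80 and 115 at noon, 90 at 2 pm, 328, 57 and 571 at 3 pm, and 317 and 200 at 3 am. Every nad5 value at the other times exceeded the 8 am controls, while cox2 overlapped them at 9 am and 3 pm through sample 3 and sample 2 of these groups. Over all libraries nad4 ran from 15 to 388, nad7 from 4 to 303, nad9 from 9 to 406, and the intron maturase matR from 9 to 131. The highest ratio of highest to lowest library was that of atp6, a membrane subunit of the ATP synthase, with 0 to 441. ATMG00030, described as a hypothetical protein, made up 9.81 to 78.6% of the mitochondrial sum, with 34251, 42298 and 1437 at 9 am and 1572, 4080 and 1046 at 8 am. ATMG01410, an open reading frame without a described role, ran from 494 to 3130, its highest value in 3 am sample 1, and ATMG00560, described by an OB fold, from 2 to 132.

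The cox1 row, the catalytic subunit of complex IV, parted from the other respiratory rows after ant removal. It was 180, 908 and 907 in these libraries, against 43, 123 and 174 in the 8 am controls. The other 10 respiratory rows summed to 510, 200 and 202 after ant removal, against 137, 345 and 181 at 8 am. Samples 2 and 3 were therefore far above the controls in cox1 and within the range of the controls in the sum of the rest. These samples differ from each other less than other replicates do: the median absolute log2 difference between them, and between noon samples 1 and 3, was 0.063 to 0.067, against 0.111 to 0.498 in the other 18 pairs of replicates. Whether each such pair is separate biological samples was not tested, and counts with each pair merged into 1 library are given where these differ from the unmerged ones. With gut contents cox1 was 115 and 653, with Gracilis 74, 195 and 265, and with returned ants 150.

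The 9 rows whose descriptions name polymerases, reverse transcriptases or retroelement proteins did not follow the other rows of either genome. ATMG00860, described as a DNA/RNA polymerase, was 12531 in 3 pm sample 3, 6820 in 9 am sample 3 and 6780 at 2 pm, and 1391 to 4177 in the other 21 libraries. These are the libraries in which rps2 and rpoC2 were highest. ATMG01250, described as a reverse transcriptase, was 181, 265 and 241 after ant removal, 188, 157 and 251 with Gracilis and 231 and 202 with gut contents, against 74, 60 and 88 at 8 am, with no overlap. It was 28, 24 and 23 at noon. ATMG00300, described as a Gag-Pol related protein, was 2947, 1726 and 786 at 8 am and 341 to 1385 elsewhere. As background, such proteins are also encoded by mobile elements in plant nuclear genomes, and whether these rows were read from the mitochondrion was not tested.

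Mitochondrial proteins were also listed under nuclear loci. In Arabidopsis, chromosome 2 holds a large insertion of mitochondrial DNA, and 9 rows of the table carry loci from that region (AT2G07) with descriptions or names of mitochondrial proteins. These 9 were chosen after their values were seen. Their sum was 350, 747 and 409 in the 8 am controls, 3723, 3833 and 664 at 9 am, 958, 1000 and 1226 at noon, 1027 at 2 pm, 1448, 992 and 4113 at 3 pm and 3450 and 2586 at 3 am. They were picked for this pattern, so the values are a description and carry no test. Of the 8 rows with a mean of at least 10, 8 had their lowest 9 am value in sample 3, 8 their highest 3 pm value in sample 3 and 8 their highest 8 am value in sample 2. COX3 of complex IV (AT2G07687) was 1567, 1359 and 83 at 9 am, and ATP1 (AT2G07698), a catalytic-head subunit of the ATP synthase, 1024, 1375 and 500. The median log2 difference of the 8 rows was 2.07 at 3 pm, 1.23 at noon and 3.18 at 3 am against 8 am, and -0.49 after ant removal.

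**Figure D4:**
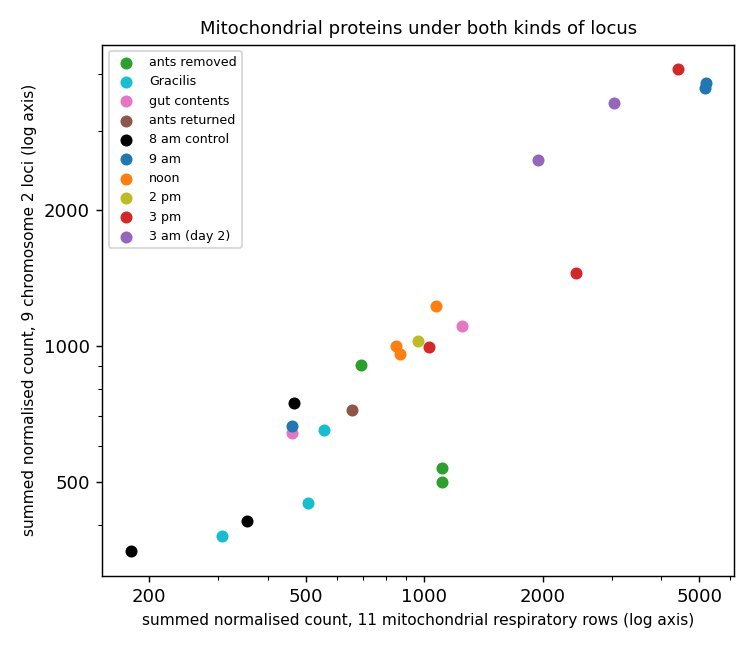
Summed normalised count of the 9 chromosome 2 loci against that of the 11 mitochondrial respiratory rows, both on log axes, with 1 point per library coloured by group. The high libraries of 9 am, 3 pm and 3 am stand at the upper right, and ant removal samples 2 and 3 lie below the points of like respiratory sum, at chromosome 2 sums of 537 and 500 for respiratory sums of 1108 and 1109.

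Differences were tested on the scale log2(value + 1) in 1 linear model over all 24 libraries (limma, Benjamini-Hochberg adjustment over the 12264 rows with a mean of at least 10, threshold 0.05, 2-sided), in which 36 plastid and 27 mitochondrial rows took part. The spread is estimated jointly over the groups. Across the 5 replicated times (8 am, 9 am, noon, 3 pm and 3 am) the F test called 3 of 36 plastid and 11 of 27 mitochondrial rows, against 39.7% of all rows. The plastid rows were psbC (adjusted p = 0.00179), rpl16 (0.0158) and ndhF (0.0289). Of the mitochondrial rows, nad5 had the smallest adjusted p (0.000481), followed by ATMG01250 (0.00668) and ATMG00180, described as cytochrome c biogenesis (0.0153). The plastid share was thus below that of the table although the range of plastid rows was wider. The counts rested on single libraries: without 9 am sample 3 they were 19 plastid and 19 mitochondrial rows, against 42.4% of all rows. They were 1 and 7 without 3 am sample 1 (35.5% of all rows) or 3 am sample 2 (35.1%). Without 8 am sample 1 they were 3 and 2 (31.6%), and without 8 am sample 2 they were 8 and 6 (33.0%). They were 3 and 7 without 8 am sample 3 (32.8%) or without any of the noon samples (30.3, 30.5 and 30.0%). The mitochondrial count was 6 with near-identical pairs merged, against 26.1% of all rows, and 4 in a fit of these times alone, against 24.3%. Without 3 pm sample 2 the plastid count was 5, against 44.5% of all rows, and without the 9 am group the counts were 13 and 20, against 47.4%.

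At 3 pm against the 8 am controls mitochondrial respiratory genes rose. Of the 27 mitochondrial rows 9 were higher and 1 lower, where 36.8% of all rows were called (17.8% higher and 19.0% lower). Risers were 5 of 7 complex I subunits, cox1 of complex IV, both ATP synthase rows and ATMG00180, and the row that fell was ATMG00300 (-1.74 ± 0.43 SE, adjusted p = 0.00492). The nad5 row rose by 2.46 ± 0.40 (adjusted p = 0.000232), nad2 by 2.53 ± 0.64 (0.00547) and nad1 by 3.45 ± 0.94 (0.00883). The cox1 row was 806, 443 and 1047 at 3 pm, against 43, 123 and 174 at 8 am (2.87 ± 0.81, adjusted p = 0.0111). None of the 36 plastid rows passed in this limma fit, with 1 at an unadjusted p under 0.05. None passed with pseudocount 10 or without the filter, and 1, a lower row, passed after rescaling by the median of ratios. Their median log2 change was 1.13, with 32 of 36 above 0, against 2.14 for all 27 mitochondrial rows and 0.00 for all rows. For psbA the change was 2.53, with a 95% interval of -0.15 to 5.20. The mitochondrial count was 15 without 3 pm sample 2 (33.4% of all rows), 6 without 3 pm sample 3 (35.4%) and 5 without 8 am sample 1 (29.1%). The plastid count was 3 without 3 pm sample 2, with 2 higher and 1 lower. It was 1 without 8 am sample 1, a lower row.

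Noon, with 3 libraries close together, showed fewer mitochondrial calls than 3 pm and, like 3 pm, no plastid call. Of the 27 mitochondrial rows 2 were higher and 2 lower than at 8 am, where 37.4% of all rows were called (19.7% higher and 17.7% lower), and of the 36 plastid rows 0 passed, in limma, with 0 at an unadjusted p under 0.05. The nad5 row rose by 1.58 ± 0.40 SE (adjusted p = 0.00502). The others were ATMG00310 (1.55 ± 0.48), ATMG01250 (-1.52 ± 0.45) and ATMG00710 (-0.66 ± 0.25), all 3 among the polymerase and retroelement descriptions. The call of ATMG00710 was lost without any of the 6 libraries compared, with near-identical pairs merged (adjusted p = 0.111 in limma) and with equal nuclear sums (-0.43, adjusted p = 0.139), and that of ATMG00310 with these pairs merged (0.0582), where the mitochondrial count was 2. Median log2 changes were 0.66 for plastid and 1.34 for mitochondrial rows. With the 9 am and 3 pm libraries left out of the fit, an alternative added after seeing the data, 11 mitochondrial rows passed, against 52.2% of all rows, and without noon sample 3 or 8 am sample 3 the count was 2.

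At 3 am on day 2 most rows of both genomes were far above the 8 am controls in value, though few passed the adjusted threshold. Only nad5 did, with 274 and 194 at 3 am against 46, 66 and 35 at 8 am (2.26 ± 0.44 SE, adjusted p = 0.0245), that is 1 of 27 mitochondrial and 0 of 36 plastid rows, where 0.832% of all rows were called (0.269% higher and 0.563% lower). At an unadjusted p under 0.05 stood 26 of 36 plastid and 19 of 27 mitochondrial rows, against 11.5% of all rows. The median log2 change was 2.79 for plastid rows, with 35 of 36 above 0, against 0.00 for all rows. It was 2.49 for mitochondrial rows, with 22 of 27 above 0. The 9 polymerase and retroelement rows among these had a median of -0.33, with 4 above 0. The rbcL row changed by 4.00 (95% interval 0.84 to 7.16, adjusted p = 0.273) and psbC by 1.97 (1.01 to 2.93, adjusted p = 0.0505). Without the 9 am and 3 pm libraries in the fit, limma called 17 plastid rows, all higher, and 17 mitochondrial rows, 16 higher and 1 lower, against 8.55% of all rows. The call of nad5 was lost without either 3 am sample, without 8 am sample 1 or without 8 am sample 3. It was also lost with near-identical pairs merged (adjusted p = 0.0613 in limma, 0 rows of either genome called) and when the 3 am and 8 am libraries were fitted without the others (0.0651).

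At 3 am against 3 pm a few plastid rows and no mitochondrial row passed, and the difference between the genomes itself was not tested. Of the plastid rows 4 of 36 were higher and none lower, where 19.6% of all rows were called (10.3% higher and 9.26% lower). Among them were rpl16, a large-subunit ribosomal protein (153 and 174 at 3 am, against 25, 11 and 26 at 3 pm, 3.01 ± 0.67 SE, adjusted p = 0.00719), psbC (1.71 ± 0.46, 0.0168) and ndhF of the NADH dehydrogenase-like complex (2.81 ± 0.87, 0.0321). In each of these rows both 3 am libraries exceeded all 3 pm libraries. The median log2 change was 1.65 over plastid rows and 0.45 over mitochondrial rows. The 11 respiratory rows had a median of 0.13 and a range of -0.26 to 0.98. For cox1 the change was -0.02 with a 95% interval of -1.94 to 1.89. In mitochondrial rows limma called 0, with 2 at an unadjusted p under 0.05. Without 3 am sample 1 or 3 am sample 2 the change was 3.1 or 2.92 for rpl16 and 1.32 or 2.11 for psbC. For ndhF it was 2.64 or 2.98. A fit with 1 library at 3 am cannot decide whether the plastid calls hold. Leaving out 3 pm sample 2 gave 2 plastid calls, against 16.9% of all rows. A fit of these groups alone gave 0, against 0.0244% of all rows.

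After removal of the ants a few plastid rows fell and 2 mitochondrial rows rose. The plastid rows were rpl22, with 511, 458 and 436 against 728, 1270 and 743 at 8 am (-0.92 ± 0.22 SE, adjusted p = 0.00538), and psbC, with 841, 548 and 535 against 1291, 2687 and 2057 (-1.62 ± 0.41, 0.00753). These 2 of 36 stood beside 27.5% of all rows called (11.6% higher and 15.9% lower), and the groups did not overlap for either. The mitochondrial rows were ATMG01250 (1.62 ± 0.45, 0.0134) and cox1 (2.43 ± 0.81, 0.0349). With each near-identical pair as 1 library the mitochondrial count was 0, and it was 0 without ant removal sample 2 or without 8 am sample 2. It was 1 without ant removal sample 3 or without 8 am sample 1. Median log2 changes were -1.30 for plastid, -0.07 for mitochondrial and -0.05 for all rows, and 3 of 36 plastid rows lay above 0. For psbA the change was -1.63 (95% interval -4.30 to 1.05). Leaving out ant removal sample 1 gave 6 plastid calls, all lower, against 24.4% of all rows. A fit without the 9 am and 3 pm libraries gave 5, against 45.9% of all rows.

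The Gracilis and gut contents treatments, compared with the same controls, gave similar short lists. With Gracilis 4 of 36 plastid rows were lower, against 30.4% of all rows called (13.7% higher and 16.7% lower), among them psbC (513, 544 and 512, -1.88 ± 0.41 SE, adjusted p = 0.00251), rpl22 (515, 512 and 474, -0.82 ± 0.22, 0.00975) and rpl33 (3, 2 and 0, -3.28 ± 1.09, 0.0296). With pseudocount 10 the change of rpl33 was -1.55 (limma, adjusted p = 0.0647), which ended its call. With near-identical pairs merged 3 plastid rows were lower, with 3184 rows of the whole table called. Leaving out 8 am sample 2 gave a count of 1 (18.9% of all rows) and leaving out Gracilis sample 2 a count of 2 (19.7%). A fit without the 9 am and 3 pm libraries called 11, all lower, against 48.3% of all rows. With gut contents rpl22 was the 1 plastid row called, with 344 and 519 (-1.06 ± 0.25, 0.00579), where 22.0% of all rows passed (9.12% higher and 12.9% lower), and without gut contents sample 1 it was not. ATMG01250 rose in both, by 1.40 ± 0.45 (0.0255) and 1.55 ± 0.50 (0.0356), and ATMG00300 fell with gut contents, by 1.44 (SE 0.48, 0.0407). With Gracilis the call of ATMG01250 was lost without 8 am samples 1 or 2 or Gracilis samples 1 or 3. With gut contents both mitochondrial calls were lost without 8 am samples 1 or 2, without either gut contents sample and with near-identical pairs merged. Plastid medians were -1.37 with Gracilis and 0.03 with gut contents. All 3 treatments share their controls, in which sample 2 was the highest for 35 of 36 plastid rows.

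**Figure D5:**
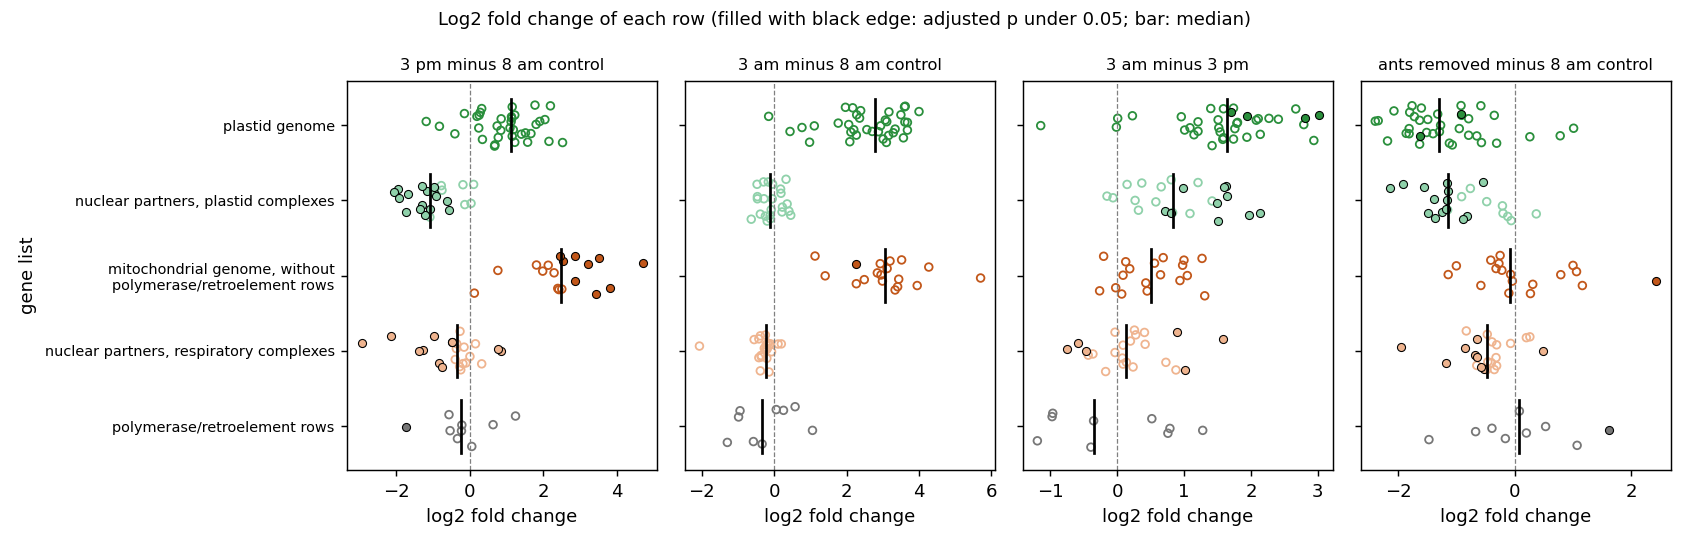
Log2 fold change of each row at 3 pm and at 3 am against the 8 am controls, at 3 am against 3 pm, and after ant removal against the 8 am controls, for both genomes, their nuclear partners and the polymerase and retroelement rows. Filled points with a black edge passed an adjusted p of 0.05, open points did not, and bars are medians. At 3 pm 32 of 36 plastid points lie to the right of 0, with a median of 1.13, while most nuclear partners of plastid complexes lie to the left, with a median of -1.08.

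Nuclear partners of the plastid complexes had medians of the opposite sign to the plastid rows at noon and 3 pm, and of the same sign after ant removal and with Gracilis. Most of the 23 nuclear genes listed here code for subunits of the photosystems, cytochrome b6f, the plastid ATP synthase and Rubisco. The list also holds plastocyanin (AT1G20340) and ferredoxin-NADP reductase (AT5G66190). Of the 23, 16 fell and 0 rose at 3 pm against 8 am, where 19.0% of all rows fell. Their median log2 change was -1.08. PSAN, a luminal subunit of photosystem I, fell by 1.93 (SE 0.32) and PSBQ2 of the oxygen-evolving complex fell by 2.06 (SE 0.41). At noon 15 fell and 0 rose (median -1.37), where 17.7% of all rows fell. At 3 am against 8 am 0 passed in limma, with 1 at an unadjusted p under 0.05, and the median was -0.10, where the plastid median was 2.79. At 3 am against 3 pm 10 rose and 0 fell (median 0.83), where 10.3% of all rows rose, PSBX of photosystem II by 2.14 ± 0.52 SE. After ant removal 14 fell (median -1.15), with Gracilis 10 and with gut contents 11, against 15.9, 16.7 and 12.9% of all rows, and none rose in any of them. The 23 nuclear genes listed with the respiratory complexes and tested were not all subunits. They include an RNA polymerase (AT1G68990) and an alternative oxidase (AT3G22370). At 3 pm AT1G68990 was 873, 766 and 547, against 423, 340 and 433 at 8 am. AT3G22370 was 3236, 2562 and 2206, against 1555, 1368 and 1713. Calls of complex subunits alone were not counted. Of the 23, 2 rose and 9 fell at 3 pm (median -0.35, with 36.8% of all rows called). There 8 of the 11 mitochondrially encoded respiratory rows rose. Among those that fell was CYTC1, the mobile electron carrier cytochrome c (-2.14 ± 0.27). Genes of this list fell in 8 cases after ant removal, 11 with Gracilis and 6 with gut contents, against 15.9, 16.7 and 12.9% of all rows. They rose in 1, 1 and 2 cases, against 11.6, 13.7 and 9.12% of all rows.

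Nuclear genes that act on organelle RNA were counted as well. A list of 19 genes held plastid sigma factors, proteins of the plastid-encoded polymerase and a nuclear-encoded plastid RNA polymerase (AT2G24120). Of the 19, 8 rose and 2 fell at 3 pm and 7 rose and 2 fell at noon, against 8 am. There 36.8 and 37.4% of all rows were called. FSD3, a superoxide dismutase bound to the plastid polymerase, rose by 1.97 ± 0.37 SE at 3 pm, and SIG5, a light- and stress-responsive sigma factor, fell by 1.54 (SE 0.27) at 3 pm and fell by 2.50 (SE 0.27) at noon. At 3 am against 8 am 0 of the 19 passed in limma, with 0 at an unadjusted p under 0.05. In each ant treatment 1 fell, SIG1, where 15.9% of all rows fell after ant removal, 16.7% with Gracilis and 12.9% with gut contents. Of 8 genes for organelle RNA processing and decay, 2 rose and 0 fell at 3 pm against 8 am. There 17.8% of all rows rose and 36.8% were called in either direction. Among the 2 was CP29A, an RNA-binding protein of the chloroplast (1.63 ± 0.30). At 3 am against 3 pm 1 of the 8 fell, CP29A (-1.82 ± 0.34), where 9.26% of all rows fell. Of the same 8 genes, 1 rose and 2 fell after ant removal and with Gracilis, and 0 rose and 2 fell with gut contents. Of all rows, 11.6, 13.7 and 9.12% rose in these treatments. CSP41A, a chloroplast RNA-binding protein and endonuclease, fell by 1.60 (SE 0.25) after ant removal, fell by 1.77 (SE 0.25) with Gracilis and fell by 1.94 (SE 0.28) with gut contents.

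Cell type markers moved between the same groups. The summed mesophyll markers were 65831 to 93030 after ant removal, 76391 to 87616 with Gracilis and 66492 to 81540 with gut contents, against 139358 to 184196 at 8 am. In each treatment 1 of 4 was called lower, where 15.9, 16.7 and 12.9% of all rows were lower. They were 32538 to 84765 at 3 pm, with 4 of 4 lower than at 8 am (36.8% of all rows called), 78053 to 80890 at noon, with 3 of 4 lower (37.4%), and 114270 to 139097 at 3 am, with 0 of 4 called. In 9 am libraries they were 74171 to 93757, where plastid sums ran from 6505 to 81098. Xylem and secondary wall markers summed to 1035 to 1263 after ant removal, 1232 to 1862 with Gracilis and 1085 to 1401 with gut contents, against 6555 to 16850 at 8 am, with 5 of 6 lower in each, where 27.5, 30.4 and 22.0% of all rows were called. They summed to 2727 to 11248 at 3 pm, with 5 of 6 lower than at 8 am, and to 8498 to 16015 at 3 am, with 5 of 6 higher than at 3 pm (19.6% of all rows called). Nectary markers summed to 10269 to 25897 at 3 pm, against 224162 to 280480 at 8 am, with 2 of 2 lower, as at noon, 2 of 2 were higher at 3 am than at 3 pm, and 1 of 2 was lower in each ant treatment. Of the mesophyll markers 2 of 4 were higher at 3 am than at 3 pm. Of 4 phloem markers 2 were lower after ant removal and with Gracilis. Of 4 cuticle and epidermis markers 1 was lower in each ant treatment and 2 at 3 pm, and of 4 guard cell markers 1 was lower at 3 pm. Of all rows, 15.9, 16.7 and 12.9% were lower in the ant treatments and 19.0% at 3 pm. Other calls went up. At noon against 8 am 1 guard cell, 1 phloem, 1 xylem and 1 cuticle marker were higher, as were 19.7% of all rows. At 3 am against 3 pm 1 guard cell and 1 cuticle marker were higher, as were 10.3% of all rows. At 3 am against 8 am 0 markers of any list were called, with 1 at an unadjusted p under 0.05. The part of cell type composition in the organelle rows was not tested.

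Set against each other within a library, where scaling between libraries cancels, the plastid sum was above the sum of all 27 mitochondrial rows in 6 of 24 libraries. Values are not stated to be divided by transcript length, so this count does not rank the RNA levels of the genomes. The log2 ratio of plastid to mitochondrial sum was -0.77, 0.68 and -0.95 at 8 am, 0.57, 0.59 and -1.03 at 9 am, -0.29, -0.15 and -0.05 at noon, -0.24 at 2 pm, 0.38, -0.68 and -0.04 at 3 pm, and 0.73 and 0.82 at 3 am. It was -0.69, -1.87 and -1.81 after ant removal, -1.42, -0.93 and -1.82 with Gracilis, -0.82 and -0.62 with gut contents and -0.91 with returned ants. By these full sums the 3 am libraries lay highest of all groups, both above every other library, and the ant treatments were below 0 throughout. Mean differences in this ratio were 1.12 at 3 am against 8 am, 0.89 at 3 am against 3 pm, 0.23 at 3 pm against 8 am, -1.11 after ant removal and -1.05 with Gracilis against 8 am, and they carry no test. Without 8 am sample 2 they were 0.75 at 3 pm, -0.60 after ant removal and -0.53 with Gracilis. Without 3 pm sample 1 or 8 am sample 3 the difference at 3 pm was -0.01 and -0.07, and without 3 pm sample 2 or 8 am sample 1 it was 0.52 and 0.02. Leaving out the 9 polymerase and retroelement rows, chosen after seeing the data, gave 0.01 at 3 am and -0.52 at 3 pm against 8 am, so the difference at 3 am against 8 am depends on rows that hold 12.4 and 18.1% of the mitochondrial sum at 3 am and 71.7, 48.1 and 58.9% at 8 am. The ratio without these 9 rows was above 0 in every time-of-day library. It ran from 0.16 in 3 pm sample 2 to 1.63 in 8 am sample 2. At 3 am it was 0.92 and 1.11, below 8 am sample 2 and the 2 pm library (1.19). After ant removal it was 0.56, -0.33 and -0.30, and with Gracilis 0.35, 0.24 and -0.03. With gut contents it was 0.50 and 0.09, and with returned ants -0.13.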

How the data were processed

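RNA sequencing was done on 24 libraries of 10 groups, 6 of 3 libraries, 2 of 2 and 2 of 1. The authors deposited normalised counts rounded to whole numbers, treated here as a score of unstated scale, and their group means, 10 columns not used here. How they were scaled is not given in the sources used here, nor are the aligner, the assembly and the annotation, and strand, transcript length and read depth are unknown. Libraries were grouped by their labels. The labels do not say that replicates came from separate days or plants, so p-values measure the spread between these pools, which may be partly technical.

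Log2(value + 1) was fitted with limma 3.58.1 (R 4.3.3, mean-variance trend) with 1 coefficient per group, for rows with a mean of at least 10, giving 14 residual and 3.66 prior degrees of freedom. The scale understates changes of low rows. P-values were 2-sided and adjusted by Benjamini-Hochberg over all rows. The F test covered 5 times, and 7 pairs of groups were compared. The script was tested on simulated data. Rows were named by a fixed set of roles, as the 3 highest and 3 lowest by mean in each genome, and as up to 4 called rows in each direction, comparison and genome with the smallest adjusted p; from each list of nuclear genes up to 3 called genes per comparison were eligible. Further rows named for their values (rps2, rpoC2, ATMG00860 and the chromosome 2 loci among them) were chosen after these were seen. The members and lists were chosen with earlier results of these data known. Alternatives were another pseudocount, no filter, other scalings, separate fits, a replicate block, near-identical pairs as 1 library, and leaving out libraries. The 2 pm and returned-ants libraries have no replicate and entered no comparison. Results of 1 row that the rule names are not reported here.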

Additional observations from a re-analysis of the deposited data

Results flagged for a closer look

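Both groups with 1 library stand outside the comparisons, and in both the mitochondrial sum was above every 8 am control. It was 15307 at 2 pm and 11057 with returned ants, against 10659 in the highest control. These differences were not tested, since each rests on 1 library. In the 2 pm library 9637 of the sum lay in the polymerase and retroelement rows, against 4832 to 6278 in the controls, and with returned ants 4610. The respiratory rows summed to 966 at 2 pm and 657 with returned ants, against 180 to 468 in the controls.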

How the results depend on the processing

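The 26 calls named by the rule kept their direction under the alternatives run on them, and other rows were not followed. Pseudocount 10 gave 6 plastid rows in the F test, 1 at 3 am against 8 am and 8 at 3 am against 3 pm. Median-of-ratios rescaling gave 5 plastid rows in the F test and 1, a lower row, at 3 pm against 8 am. Equal nuclear sums, which shift the median of all rows by 0.13 at 3 pm, 0.32 at noon and 0.14 at 3 am against 8 am, gave 6 and, at 3 am against 8 am, 1. Fits of the compared groups alone gave 4 mitochondrial rows in the F test (24.3% of all rows called), 13 at noon (57.1%), 4 after ant removal (38.6%), 3 with Gracilis (41.4%) and 1 with gut contents (25.1%), and 0 plastid rows at 3 am against 3 pm (0.0244%). Correlations between same-numbered libraries in their deviations from group means ran from -0.27 to 0.31. They were 0.09 and 0.31 at 3 am against 3 pm and 0.10 and 0.29 at 3 am against 8 am. With gut contents they were 0.31 and 0.10, and in the other comparisons they ran from -0.27 to 0.20. The labels state no pairing, and whether the numbers pair the libraries was not settled. With the replicate block the counts were 1 plastid and 3 mitochondrial rows in the F test (24.6%), 14 mitochondrial at noon (51.9%), 4 plastid and 12 mitochondrial at 3 am against 8 am (3.29%), 17 plastid at 3 am against 3 pm (5.06%), 4 mitochondrial after ant removal (29.0%), 14 plastid and 2 mitochondrial with Gracilis (4741 rows of the whole table called), and 2 plastid and 4 mitochondrial with gut contents (21.7%). Near-identical pairs as 1 library gave 6 mitochondrial rows in the F test, 2 at noon, and 0 at 3 am against 8 am, after ant removal and with gut contents. Of 26 calls of named rows, 18 stood with these pairs merged, 20 in separate fits, 24 with the block, and 25 or 26 under the other planned settings. Further alternatives were added after seeing the data. Without the 9 am group the F test called 13 plastid and 20 mitochondrial rows (47.4% of all rows). Without the 9 am and 3 pm libraries 11 mitochondrial rows were called at noon (52.2% of all rows). At 3 am against 8 am 17 plastid and 17 mitochondrial rows were called (8.55%). The counts were 5 and 4 after ant removal (45.9%), 11 and 4 with Gracilis (48.3%) and 2 and 9 with gut contents (42.1%).

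Leaving out 1 library at a time gave 1 to 19 plastid and 2 to 19 mitochondrial rows in the F test, 0 to 3 and 5 to 15 at 3 pm against 8 am, 0 to 0 and 2 to 5 at noon, 0 to 0 and 0 to 1 at 3 am against 8 am, 0 to 4 and 0 to 0 at 3 am against 3 pm, 2 to 6 and 0 to 3 after ant removal, 1 to 5 and 0 to 2 with Gracilis, and 0 to 1 and 0 to 3 with gut contents. The difference in log2 plastid to mitochondrial ratio ranged from -0.07 to 0.75 at 3 pm, -0.12 to 0.70 at noon, 0.82 to 1.64 at 3 am against 8 am, 0.61 to 1.14 at 3 am against 3 pm, -1.49 to -0.60 after ant removal, -1.35 to -0.53 with Gracilis and -0.67 to 0.14 with gut contents. It was above 0 at 3 pm and at noon as deposited, by 0.23 and 0.19, and by the median of rows it was -1 at 3 pm, -0.93 at noon, 0.23 at 3 am and -1.16 with gut contents against 8 am. Without the highest row of each genome it was 2.15 at 3 am against 8 am and 1.65 against 3 pm, and without the polymerase and retroelement rows -0.52 at 3 pm, -0.48 at noon and 0.01 at 3 am against 8 am. The cause of these changes was not tested.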
